A study of Mus musculus with 30 samples.

Results

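The 10 genes described here are the inhibitory receptors of activated CD8 T cells (Pdcd1, Ctla4, Lag3, Havcr2, Tigit, Btla, Cd160 and Cd5) together with Tox, a nuclear regulator, and Rgs16, a signalling regulator. They were chosen by name, with earlier results of these data known, and Ensembl identifiers were matched to these symbols. All 10 were found among the 55573 genes of the count table. Of the 11718 genes with enough counts to be tested, 9 belonged to the group, and Havcr2 was too low. The series compared mouse CD8 T cells labelled Furin KO, which lack the proprotein convertase FURIN, with wild-type (WT) cells, both on a C57BL/6 background and from mice of 8 weeks. Naive CD8 T cells isolated on magnetic columns from spleen and lymph nodes were stimulated for 3 days on plates coated with antibodies to CD3 and CD28 (5 µg/ml each). This stimulation was shared by all 6 groups: each genotype was cultured with no added cytokine, with TGFB1 at 0.5 ng/ml or with IL12 at 10 ng/ml, in 5 libraries per group, 1 of them from a male and 4 from females. The labels do not name the promoter or Cre that removes Furin, nor whether the libraries of a group came from separate mice, so the p-values measure the spread between these libraries.

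As background, T cells raise inhibitory receptors after their antigen receptor fires, and these proteins then restrain the same signal. PD-1 (Pdcd1), BTLA, TIGIT and CD5 carry tyrosine motifs in their tails that recruit phosphatases and other dampening enzymes, CTLA-4 competes with the costimulatory receptor CD28 for CD80 and CD86, and LAG-3 binds MHC class II. TIM-3 (Havcr2) is a later marker of effector and exhausted cells, and CD160 shares with BTLA the ligand HVEM (Tnfrsf14). TOX drives the chromatin programme of exhausted CD8 cells, and RGS16 shortens signals from G protein-coupled receptors. FURIN cuts precursor proteins, the TGFB1 precursor among them.

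Total counts per library ran from 7306151 to 15502443, and values below are counts scaled to library size with TMM factors (CPM). All 7 listed markers of CD8 T cells were detected, with summed levels of 2500 to 5420 CPM. Markers of other cells were low: the CD4 marker sum (Cd4 and Zbtb7b) was 9.81 to 26.7 CPM, 1 of 6 B cell markers, Cd79b, reached 1 CPM, with Ms4a1, Pax5 or Cd22 at 0 in whole groups, and the myeloid sum did not exceed 5.51 CPM. Furin itself, counted over the whole gene, did not separate the labels without cytokine (28.8 to 38.5 CPM in WT, 31.5 to 33.9 CPM in KO). Which part of the gene is deleted is not given in the sources used here, so this count does not check the KO label. Libraries are named by group and the number in their label, and per-library lists below are in CPM and run in the order 62, 67, 71, 72 and 75 for WT and 63, 68, 70, 73 and 74 for KO. Some libraries stood apart. With IL12, WT libraries 71, 72 and 75 had 485 to 533 CPM of Furin and 750 to 1370 CPM of Ifng, against 161 and 182 CPM of Furin and 276 and 302 CPM of Ifng in WT libraries 62 and 67. Ribosomal protein genes took 9.74% and 10.18% of CPM in WT libraries 72 and 75 with IL12, and 7.46% to 8.21% in the other 3. With TGFB1, WT library 62 held 28.9 CPM of Itgae, a gene raised by TGFB1, against 152 to 268 CPM in the other WT libraries. KO library 74 with IL12 held 463 CPM of Furin and 1430 CPM of Ifng, against 120 to 196 CPM and 338 to 566 CPM in the other KO libraries with IL12. Each of these libraries was left out in turn and WT libraries 72 and 75 with IL12 also together. Values without them are given beside the results of the 10 genes that changed, and not for ligand genes or genes of the lists.

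Promoter sequence was available from RefSeq (GRCm38.p6) for 8 of the 10 genes, with none in the table for Lag3 and Tox. The windows of Pdcd1, Rgs16 and Btla are printed because Rgs16 and Pdcd1 had the widest genotype differences without cytokine among the 9 tested genes and Btla was called between genotypes in all 3 media. Each was searched on both strands for GGAAA (the core of NFAT sites), TGANTCA (AP-1), TTCNNNGAA (STAT) and CAGACA (SMAD). Capitals mark every match, in the direction of transcription, and a match on the other strand reads as its reverse complement.
Pdcd1 (chr1:94052504-94052803, minus strand): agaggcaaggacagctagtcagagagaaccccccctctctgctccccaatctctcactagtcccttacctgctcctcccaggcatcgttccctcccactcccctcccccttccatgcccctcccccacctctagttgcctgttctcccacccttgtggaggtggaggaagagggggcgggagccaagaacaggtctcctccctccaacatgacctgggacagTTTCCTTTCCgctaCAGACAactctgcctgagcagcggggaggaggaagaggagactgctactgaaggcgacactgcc
Rgs16 (chr1:153740103-153740402, plus strand): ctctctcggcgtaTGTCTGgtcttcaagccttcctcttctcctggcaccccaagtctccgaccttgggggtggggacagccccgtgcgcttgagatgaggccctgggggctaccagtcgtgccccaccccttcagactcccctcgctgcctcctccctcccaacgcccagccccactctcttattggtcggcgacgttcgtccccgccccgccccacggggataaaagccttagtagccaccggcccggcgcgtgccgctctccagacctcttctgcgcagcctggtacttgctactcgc
Btla (chr16:45224087-45224386, plus strand): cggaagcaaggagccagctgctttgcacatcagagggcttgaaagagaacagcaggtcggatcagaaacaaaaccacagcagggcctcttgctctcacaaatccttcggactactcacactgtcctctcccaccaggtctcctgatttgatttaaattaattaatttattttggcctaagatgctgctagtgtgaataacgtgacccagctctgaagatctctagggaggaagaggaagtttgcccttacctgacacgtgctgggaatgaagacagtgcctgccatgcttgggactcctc
The Pdcd1 window held a pair of GGAAA matches on the other strand, at 28 and 23 bases before the start, and CAGACA at 14 bases before it. The Rgs16 window held CAGACA alone, on the other strand at 237 bases before the start, and the Btla window held none of the 4 motifs. Among 32851 mouse promoter windows of the same length, 61.3% held GGAAA, 7.81% TGANTCA, 8.3% TTCNNNGAA and 21% CAGACA. A match describes letters and is no evidence of binding.

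To compare levels between genes, CPM was divided by the length of each gene's merged exons. On this scale Lag3 was the most abundant of the 10 genes in all 6 groups, from 126 CPM per kb (KO, IL12) to 205 CPM per kb (WT, TGFB1), and its libraries did not overlap those of the next gene in any group. Tigit followed in the 4 groups without TGFB1, from 73.5 to 92.6 CPM per kb, although its range overlapped that of the third gene in each. With TGFB1 the place after Lag3 passed to Ctla4, at 98.9 CPM per kb in WT and 92.3 CPM per kb in KO, with Pdcd1 close behind at 97.3 and 76.7 CPM per kb and overlapping it. Cd5 and Btla lay in the middle of the order, between 21.4 and 72.7 CPM per kb, and Rgs16 between 11 and 39.9 CPM per kb. Cd160 and Tox were low at 2.47 to 8.33 CPM per kb, and Havcr2 was last in every group at no more than 0.322 CPM per kb.

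**Figure D1:**
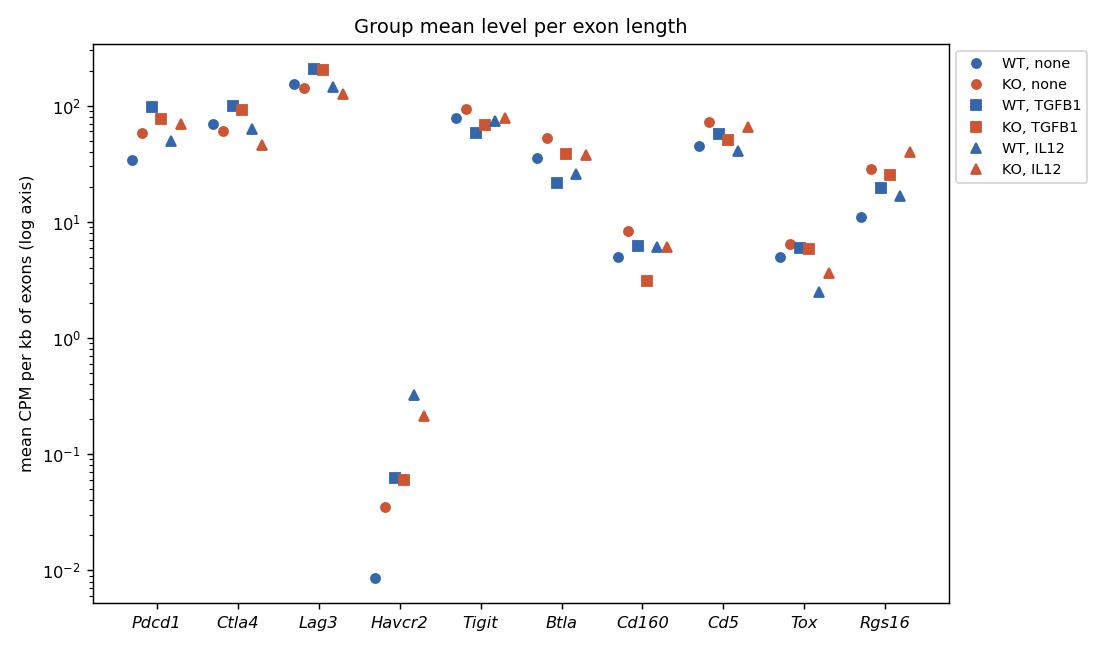
Group mean level of each of the 10 genes in CPM per kb of merged exons (log axis), with circles for no cytokine, squares for TGFB1, triangles for IL12, blue for WT and red for KO. Lag3 lies highest in every group and Havcr2 lowest, at or under 0.322 CPM per kb.

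**Figure D2:**
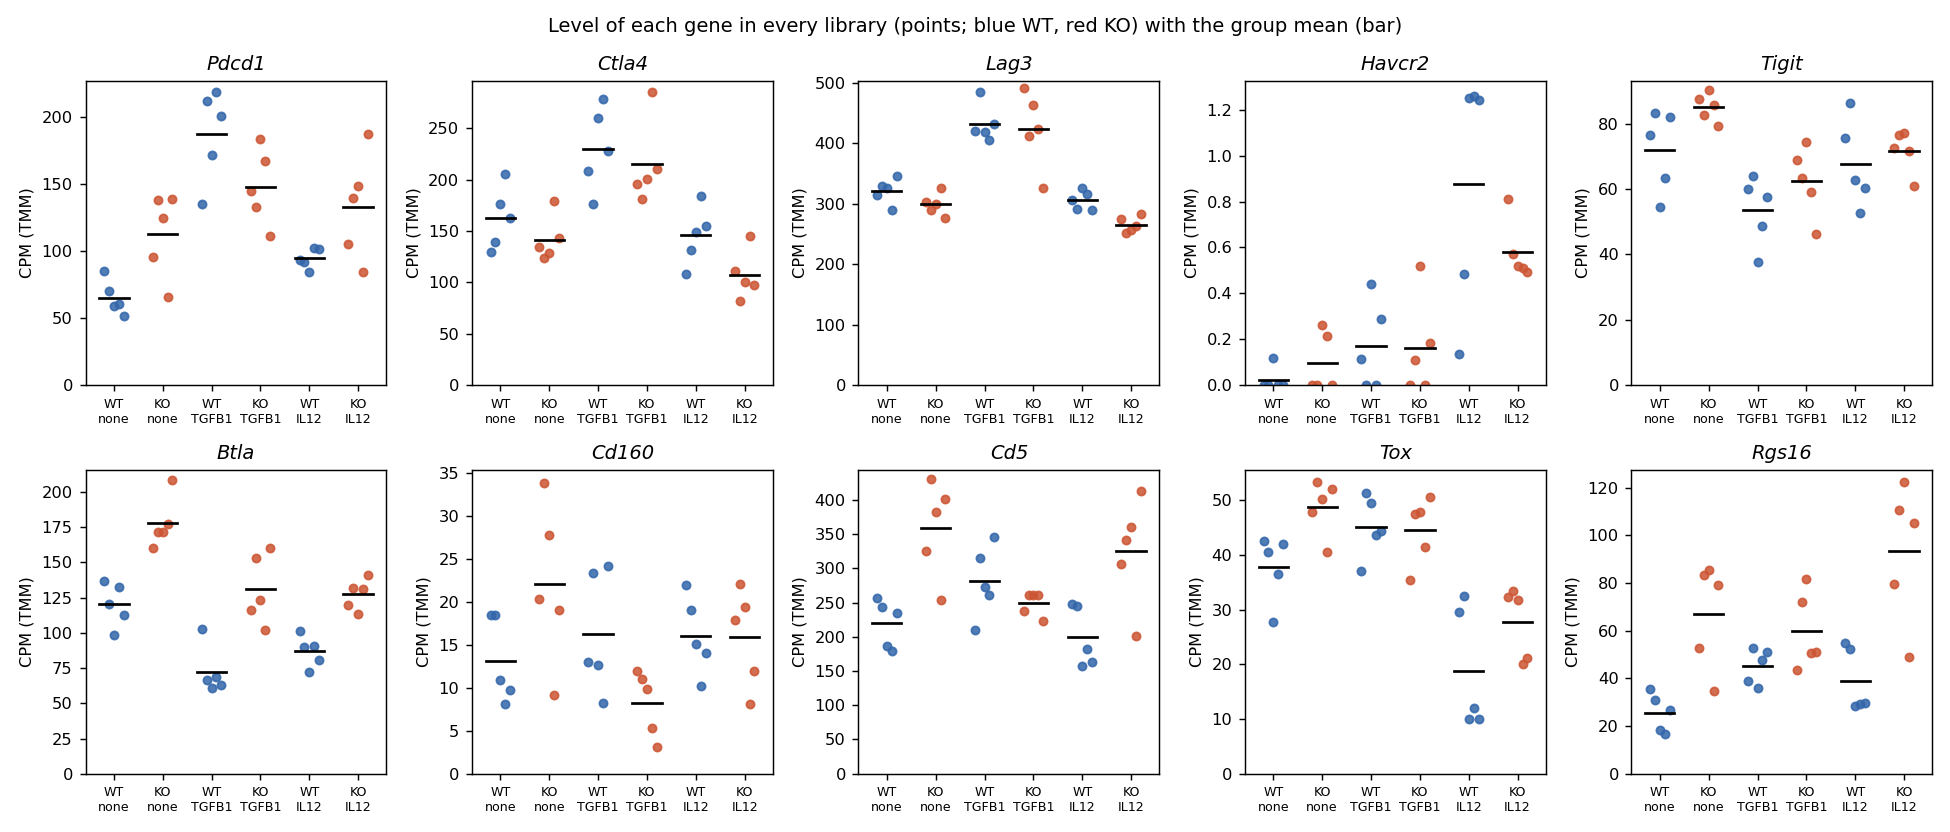
CPM of each of the 10 genes in every library (points, blue WT and red KO) by group, with bars at group means over 5 libraries and axes that start at 0. Btla lies higher in KO in all 3 media, Pdcd1 and Lag3 lie highest with TGFB1, and Tox splits into separate clusters with IL12.

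The first question of the series was how loss of FURIN changes activated CD8 cells. Without added cytokine, 4 of the 9 tested genes were higher in KO: Rgs16 2.61-fold, Pdcd1 1.72-fold, Cd5 1.63-fold and Btla 1.48-fold. None was called lower. Over all tested genes 1.08% were called higher and 1.02% lower, at an adjusted p under 0.05 from edgeR's quasi-likelihood test with Benjamini-Hochberg adjustment over all 11718 genes. Differences here and below are log2 fold changes, KO minus WT or cytokine minus none, with their standard error (SE). The median difference of the 9 genes was 0.57 on the log2 scale, against 0.00 over all tested genes. These calls depended on single libraries: 0 of 9 were called without KO 68, KO 74, WT 71 or WT 72, 1 without KO 70 and 2 without WT 75, while all 4 differences kept their direction in each case. Calls over all genes, 246 in all, ran from 7 without KO 74, 11 without KO 68, 14 without WT 72 and 17 without WT 71 up to 359 without WT 62 and 564 without KO 73.

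With TGFB1 in the medium, Btla was higher in KO and Cd160 lower, 2 of 9 genes against a background of 18.3% called higher and 17.3% called lower. With IL12, Rgs16, Cd5 and Btla were higher in KO and none was lower, against backgrounds of 2.76% and 4.01%. The genotype calls with IL12 depended on WT libraries 72 and 75: without both, 0 of the 9 genes were called and calls over all genes fell from 794 to 8. Btla was the only one of the 9 called in all 3 media. The 95% intervals of the genotype differences ran across 0 in every medium for Tigit, and Ctla4 and Lag3 were called in none of the 3 media.

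**Figure D3:**
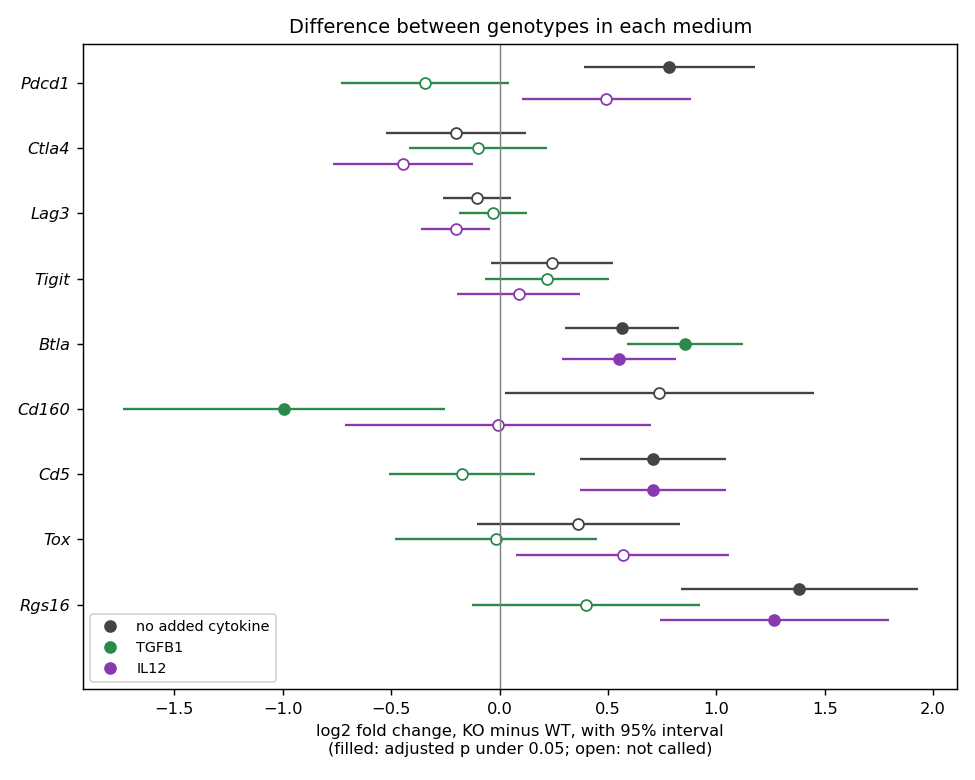
Log2 fold change of each tested gene, KO minus WT, with its 95% interval, in cultures with no added cytokine (grey), TGFB1 (green) and IL12 (purple), where filled points passed an adjusted p of 0.05. Rgs16, Cd5, Btla and Pdcd1 are filled without cytokine, Btla is filled in all 3 media, and Cd160 with TGFB1 lies at -0.99.

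The series also asked what each cytokine does in each genotype. In WT cells TGFB1 raised Pdcd1 2.88-fold, Rgs16 1.76-fold, Ctla4 1.42-fold and Lag3 1.34-fold, and lowered Btla and Tigit to 0.603 and 0.743 of the level without cytokine. In KO cells it raised Ctla4 1.52-fold and Lag3 1.42-fold and lowered Cd160, Cd5, Tigit and Btla to 0.371, 0.695, 0.732 and 0.737. Over all tested genes TGFB1 raised 19.2% and lowered 18.6% in WT, and raised 13.5% and lowered 11% in KO. IL12 lowered 2 of the 9, Btla and Tox, in each genotype, against 8.3% of all tested genes in WT and 5.74% in KO. None of the 9 was called higher, against 10.5% and 8.49%. With the library number as a term in edgeR, Rgs16 was also called higher in both genotypes (adjusted p = 0.0111 and 0.0285). Pdcd1 was then also higher in WT (adjusted p = 0.0368), and Ctla4 and Tigit lower in KO (adjusted p = 0.000111 and 0.0384). That fit called 23.9% of all tested genes in WT and 18.4% in KO. The TGFB1 and IL12 comparisons of a genotype share its libraries without cytokine, as the genotype comparison without cytokine does. Set directly against TGFB1, IL12 gave lower Pdcd1, Ctla4, Lag3, Cd5 and Tox and higher Tigit in WT (background 25.9% lower, 26.6% higher), and lower Ctla4, Lag3 and Tox and higher Cd160 in KO (background 15.9% and 14.9%). Of these, Cd160 and Tox in KO and Tigit in WT lost the call when single libraries were left out, with adjusted p up to 0.119, 0.0601 and 0.171, and Cd5 in WT without WT libraries 72 and 75 (adjusted p = 0.107).

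**Figure D4:**
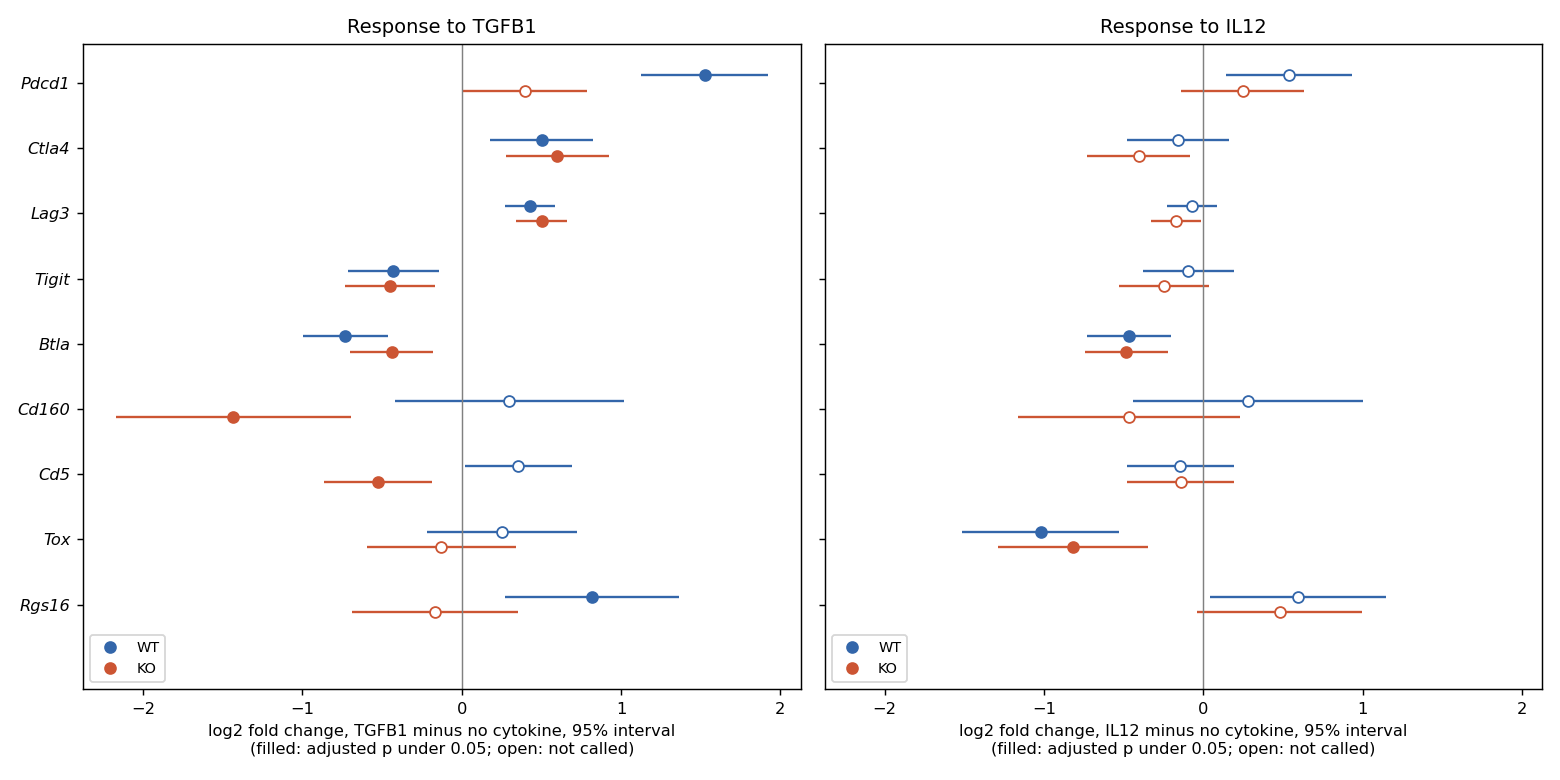
Log2 fold change of each tested gene with TGFB1 (left) and IL12 (right) against no cytokine, with 95% intervals, in WT (blue) and KO (red), where filled points passed an adjusted p of 0.05. Pdcd1 lies at 1.52 in WT and 0.40 in KO with TGFB1, and Tox and Btla lie below 0 with IL12 in both genotypes.

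Pdcd1 (ENSMUSG00000026285) encodes PD-1 and was counted over its 1930 exon bases at chr1:94038305-94052553 (GRCm38). Without cytokine its level was 85.3, 70.3, 58.8, 60.2 and 51.8 in the WT libraries and 95.4, 138, 125, 65.5 and 139 in the KO libraries. Of the KO libraries, 4 lay above every WT library and KO 73 lay inside the WT range. The difference was 0.78 (95% interval 0.39 to 1.18, adjusted p = 0.0308), and with limma-voom it was 0.75 (adjusted p = 0.0525). With TGFB1 the level was 135, 212, 172, 219 and 201 in the WT libraries and 145, 133, 184, 167 and 112 in the KO libraries. In WT every TGFB1 library exceeded every library without cytokine, a change of 1.52 (95% interval 1.12 to 1.92, adjusted p = 1.69e-06) that passed the test in every alternative run. In KO the groups overlapped and the change was 0.40 (95% interval 0.01 to 0.78, adjusted p = 0.129). The genotypes then overlapped with TGFB1, and KO minus WT was -0.34 (SE 0.19, adjusted p = 0.154). With IL12 Pdcd1 stood at 93.7, 91.9, 84.3, 103 and 102 in the WT libraries and 106, 139.8, 148, 84.5 and 188 in the KO libraries. KO 73 was again low, at the level of the WT libraries, and neither the genotype difference, 0.49 (SE 0.19, adjusted p = 0.11), nor the response of WT cells to IL12, 0.54 (SE 0.19, adjusted p = 0.0502), was called. That response passed in 10 of 22 alternatives, with adjusted p from 0.0104 to 0.262.

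The ligands of PD-1 were detected in these bulk libraries, and which cells expressed them was not tested. For ligand genes, here and below, values with libraries left out are not given. Pdcd1lg2 (PD-L2) was 9.26 ± 3.76 CPM (SD, n = 5) in WT and 19.4 ± 4.45 CPM in KO without cytokine, a difference of 1.06 (SE 0.25, adjusted p = 0.0265). It fell with TGFB1 in KO, a change of -1.47 (SE 0.26, adjusted p = 8.71e-05). Cd274 (PD-L1) lay between 15.8 and 20.4 CPM on average in all 6 groups and was called in 1 genotype comparison, lower in KO with TGFB1 at -0.38 (SE 0.13, adjusted p = 0.0248).

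Ctla4 (ENSMUSG00000026011), at chr1:60887000-60915832, moved with the medium and was called in no genotype comparison. It stood at 129.8, 139.8, 176, 206 and 163 in the WT libraries and 134, 124, 128, 179 and 143 in the KO libraries without cytokine. With TGFB1 the values were 208, 177, 260.4, 279 and 228 in the WT libraries and 196, 181, 201, 286 and 211 in the KO libraries. The KO groups did not overlap and the WT groups did. The responses were 0.50 (95% interval 0.18 to 0.82, adjusted p = 0.013) in WT and 0.60 (95% interval 0.28 to 0.92, adjusted p = 0.00558) in KO. KO 73, the lowest KO library for Pdcd1 without cytokine, was the highest KO library for Ctla4 in all 3 media. With IL12 the KO group reached the lowest mean of the 6, 107 ± 23.8 CPM (SD, n = 5), against 146 ± 28.2 CPM in WT, a difference of -0.45 (SE 0.16, adjusted p = 0.0826). That difference was called in 5 of 21 alternatives, with adjusted p from 0.0237 to 0.539. The IL12 response was -0.16 (SE 0.16, adjusted p = 0.521) in WT and -0.41 (SE 0.16, adjusted p = 0.0845) in KO. Ctla4 was higher with IL12 in 0 of 5 numbers of each genotype. Over the alternatives the adjusted p of this response ran from 0.0797 to 0.836 in WT and from 0.000111 to 0.24 in KO. A processed pseudogene, Rpl18-ps1, lies in the same stretch and shares 0 exon bases with Ctla4. Of the ligands of CTLA-4, Cd86 was lower in KO than in WT with TGFB1, -1.65 (SE 0.27, adjusted p = 0.000166), and fell with IL12, with changes of -1.93 (SE 0.30, adjusted p = 5.5e-05) in WT and -1.95 (SE 0.32, adjusted p = 8.33e-05) in KO. Cd80 was called in none of the 3 genotype and 4 cytokine comparisons.

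Lag3 (ENSMUSG00000030124), at chr6:124904361-124911705, rose with TGFB1 in both genotypes and was called in no genotype comparison. Without cytokine its level was 321 ± 20.9 CPM (SD, n = 5) in WT and 299 ± 17.9 CPM in KO. With TGFB1 the values were 419.8, 484, 419, 405 and 431 in the WT libraries and 491, 412, 463, 423 and 326 in the KO libraries. Every TGFB1 library lay above every library of the same genotype without cytokine, which ranged over 290 to 346 CPM in WT and 277 to 325 CPM in KO. The responses were 0.43 (95% interval 0.27 to 0.58, adjusted p = 0.00013) and 0.50 (95% interval 0.34 to 0.66, adjusted p = 1.56e-05), and their difference was 0.08 (SE 0.11, adjusted p = 0.711). With IL12 the level was 289 to 326 CPM in WT and 251 to 283 CPM in KO. These ranges did not overlap, and the difference of -0.20 (SE 0.08, adjusted p = 0.103) did not pass the test over all genes. Fgl1, a ligand of LAG-3, was too low to be tested, and Lgals3, a galectin that binds LAG-3 among many glycoproteins, rose with TGFB1 by 1.84 (SE 0.23, adjusted p = 1.16e-06) in WT and 1.40 (SE 0.23, adjusted p = 3.53e-05) in KO.

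Tigit (ENSMUSG00000071552), at chr16:43648867-43664146, fell with TGFB1 in both genotypes. Its level was 54.5 to 83.2 CPM in WT and 79.2 to 90.4 CPM in KO without cytokine, and 37.8 to 63.9 CPM and 46.2 to 74.5 CPM with TGFB1. The KO ranges did not overlap. The changes were -0.43 (SE 0.14, adjusted p = 0.0165) in WT and -0.45 (SE 0.14, adjusted p = 0.0174) in KO. The WT call was lost without WT library 71 with TGFB1 or WT library 67 without cytokine, and the KO call without KO library 74 with TGFB1, with adjusted p up to 0.0649 and 0.0554 over these. With the compared groups fitted alone the WT change was -0.42 (adjusted p = 0.0512). Its ligand Pvr was called in none of the genotype comparisons, and Nectin3, another nectin of the list, rose with TGFB1 by 1.18 (SE 0.38, adjusted p = 0.0161) in WT and 1.5 (SE 0.37, adjusted p = 0.00353) in KO. Nectin3 was low, at means of 0.456 CPM in WT and 0.448 CPM in KO without cytokine and 1.03 and 1.28 CPM with TGFB1.

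Havcr2 (ENSMUSG00000020399), which encodes TIM-3 at chr11:46454935-46481255, was near the limit of detection. Over the 5 libraries of a group its counts summed to 1 in WT and 4 in KO without cytokine, 9 and 8 with TGFB1, and 43 and 34 with IL12. As a share of all counts of the group, the IL12 groups thus held 0.900 CPM (exact 95% Poisson interval 0.651 to 1.21, counting error only) in WT and 0.577 CPM (0.400 to 0.806) in KO. WT libraries 71, 72 and 75 with IL12 stood at 1.252, 1.263 and 1.243 CPM, and WT libraries 62 and 67 at 0.137 and 0.484 CPM. The IL12 to no-cytokine ratio of summed counts was 40.3 in WT (95% interval 6.85 to 1630) and 6.92 in KO (2.47 to 26.8). The intervals of these and the following Havcr2 ratios hold counting error only, with no spread between libraries. When genes with low counts were also tested, edgeR called Havcr2 higher with IL12 in both genotypes (adjusted p = 0.000409 for WT cells and 0.0317 for KO cells). Without WT libraries 71, 72 and 75 with IL12, an alternative chosen after seeing the data, the WT ratio was 15.3 (95% interval 1.85 to 703) and rested on 6 counts against 1. The KO to WT ratio with IL12 was 0.641 (0.397 to 1.03). Its ligand Lgals9, galectin-9, was lower in KO in every medium: 129 ± 9.36 CPM (SD, n = 5) in WT against 87.9 ± 16.1 CPM in KO without cytokine. The Lgals9 differences were -0.55 (SE 0.12, adjusted p = 0.0163) without cytokine, -0.60 (SE 0.12, adjusted p = 0.000622) with TGFB1 and -0.44 (SE 0.12, adjusted p = 0.026) with IL12.

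Btla (ENSMUSG00000052013), at chr16:45224315-45257670, was higher in KO cells in each medium. Without cytokine the values were 137, 120.5, 98.7, 133 and 112 in the WT libraries and 161, 172, 171, 177 and 208 in the KO libraries. With TGFB1 they were 103, 66.9, 61, 69 and 62.8 in the WT libraries and 116, 154, 124, 102 and 160.1 in the KO libraries. With IL12 they were 102, 89.8, 72.2, 90.6 and 81 in the WT libraries and 119.5, 132, 113, 132 and 141 in the KO libraries. The genotypes did not overlap without cytokine or with IL12, and with TGFB1 WT 62, at 103 CPM, overlapped KO 73, at 102 CPM. The differences were 0.57 (95% interval 0.30 to 0.83, adjusted p = 0.0227), 0.86 (95% interval 0.59 to 1.12, adjusted p = 0.000102) and 0.55 (95% interval 0.29 to 0.82, adjusted p = 0.0124) in this order of media. With TGFB1 the call was kept in all 21 alternatives, with differences from 0.77 to 1.05. Without cytokine it was lost when any of 6 libraries was left out (KO 68, KO 70, KO 74, WT 71, WT 72 or WT 75), and with IL12 without WT libraries 72 and 75 together, where the difference was 0.55 (adjusted p = 0.138). B cells also express Btla. The summed level of their markers, most of it Cd79b, was 9.45 to 16.8 CPM in WT and 5.99 to 10.9 CPM in KO without cytokine, 11.4 to 18.6 and 8.31 to 13.7 CPM with TGFB1 and 8.47 to 13.2 and 6.34 to 7.63 CPM with IL12, and its part in the Btla results was not tested. Cytokines lowered Btla in both genotypes. The TGFB1 change was -0.73 (SE 0.13, adjusted p = 0.000119) in WT and -0.44 (SE 0.13, adjusted p = 0.0119) in KO, and the IL12 change was -0.47 (SE 0.13, adjusted p = 0.0121) in WT and -0.48 (SE 0.13, adjusted p = 0.00999) in KO. The KO call with TGFB1 was lost without KO library 73 with TGFB1 (adjusted p = 0.0525), and the WT call with IL12 without WT libraries 72 and 75 (adjusted p = 0.0757).

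Cd160 (ENSMUSG00000038304), on the minus strand at chr3:96798763-96829351, encodes a receptor that shares a ligand with BTLA. Without cytokine it stood at 18.5, 18.5, 10.8, 8.14 and 9.76 in the WT libraries and 20.3, 33.8, 27.7, 9.18 and 19.1 in the KO libraries. With TGFB1 it stood at 13, 23.4, 12.6, 8.25 and 24.1 in the WT libraries and 12, 11, 9.87, 5.30 and 3.13 in the KO libraries. The KO values fell in each of the 5 numbers, from the highest group mean of the 6 to the lowest, while in WT the groups overlapped widely. The changes were -1.43 (95% interval -2.17 to -0.69, adjusted p = 0.00428) in KO and 0.30 (95% interval -0.42 to 1.02, adjusted p = 0.528) in WT. With TGFB1 the KO level was 0.502 of the WT level, -0.99 (95% interval -1.74 to -0.25, adjusted p = 0.0339), with overlapping libraries. That call was lost without KO 73, KO 74, WT 67 or WT 75 (adjusted p up to 0.112) and when the compared groups were fitted alone (adjusted p = 0.0701). With IL12 the genotypes did not separate, at 10.2 to 22 CPM in WT and 8.12 to 22 CPM in KO. Cd160 shares 68 exon bases with Pdzk1 on the other strand, which did not exceed 1.04 CPM in any library. The shared ligand Tnfrsf14 (HVEM) was 3.59 to 6.34 CPM in WT without cytokine, rose with TGFB1 in WT by 0.82 (SE 0.24, adjusted p = 0.00785) and was called in no genotype comparison.

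Cd5 (ENSMUSG00000024669), at chr19:10717116-10739002, is a scavenger receptor relative that tunes antigen receptor signals and tracks their strength. Without cytokine it stood at 256, 243, 187, 179 and 234 in the WT libraries and 325, 430.2, 382, 254 and 402 in the KO libraries. With IL12 it stood at 247, 244, 157, 183 and 164 in the WT libraries and 306, 342, 360.2, 202 and 413 in the KO libraries. In each medium 4 KO libraries lay above every WT library and KO 73 lay within the WT range. The genotype differences were 0.71 (95% interval 0.37 to 1.04, adjusted p = 0.0247) and 0.71 (95% interval 0.37 to 1.04, adjusted p = 0.0122). With IL12 the call was lost without WT 75 (0.65, adjusted p = 0.0558), without WT libraries 72 and 75 together (0.60, adjusted p = 0.193) and when the compared groups were fitted alone (0.71, adjusted p = 0.0846). With TGFB1 it stood at 210, 316, 273, 260.3 and 346 in the WT libraries and 238, 261, 261, 261 and 224 in the KO libraries. The genotypes then overlapped, -0.17 (SE 0.16, adjusted p = 0.421). The KO level fell with TGFB1, a change of -0.52 (SE 0.16, adjusted p = 0.0192). That call was lost without KO 68 or KO 74 with no cytokine (adjusted p up to 0.0642). The WT change of 0.35 (SE 0.16, adjusted p = 0.0886) was not called, nor in 19 of 22 alternatives. It was called without WT library 62 with TGFB1 (0.44, adjusted p = 0.0311) and in females alone (0.52, adjusted p = 0.0256). Using edgeR with the number as a term also called it (0.37, adjusted p = 0.0409). Cd6, the neighbouring paralogue of Cd5 and a member of the costimulatory list, was higher in KO with IL12, 0.69 (SE 0.15, adjusted p = 0.00725).

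Rgs16 (ENSMUSG00000026475), at chr1:153740349-153745468, had the largest genotype difference of the 9 tested genes. Without cytokine its level was 35.6, 30.7, 18.5, 16.6 and 26.8 in the WT libraries and 52.9, 83.4, 85.5, 34.8 and 79.3 in the KO libraries. With IL12 its level was 54.8, 52.4, 28.4, 29.3 and 29.8 in the WT libraries and 79.6, 111, 122, 49.1 and 105 in the KO libraries. In both media 4 KO libraries exceeded every WT library and KO 73 lay inside the WT range. The differences were 1.38 (95% interval 0.84 to 1.93, adjusted p = 0.0124) and 1.27 (95% interval 0.74 to 1.80, adjusted p = 0.00573). Without WT libraries 72 and 75 the IL12 difference was 1.06 (adjusted p = 0.138), with the compared groups fitted alone it was 1.27 (adjusted p = 0.0551), and leaving out single libraries without cytokine gave 1.26 to 1.55 with adjusted p up to 0.0549. With TGFB1 its level was 39.1, 53, 35.8, 47.7 and 51.2 in the WT libraries and 43.4, 72, 81.9, 50.7 and 50.9 in the KO libraries. The genotypes then overlapped, with a difference of 0.40 (SE 0.26, adjusted p = 0.227). The TGFB1 response was 0.82 (SE 0.27, adjusted p = 0.017) in WT and -0.17 (SE 0.26, adjusted p = 0.682) in KO. The WT rise was not called without WT library 72 with no cytokine (0.70, adjusted p = 0.0539). The IL12 response was 0.59 (SE 0.27, adjusted p = 0.123) in WT and 0.48 (SE 0.25, adjusted p = 0.222) in KO. Rgs16 was higher with IL12 in 5 of 5 numbers of each genotype. Both responses were called by edgeR with the number as a term (adjusted p = 0.0111 and 0.0285) and in no other alternative. Rgs16 shares 236 exon bases with the antisense gene Gm28513, which did not exceed 0.264 CPM. Of 7 other tested genes of the RGS family, Rgs2 was higher in KO without cytokine, 1.01 (SE 0.22, adjusted p = 0.0218), against 1.08% of all tested genes. None of the 7 was called with IL12, where 2.76% of all tested genes were higher and 4.01% lower. With TGFB1 Rgs1 was higher in KO and Rgs14, Rgs10 and Rgs3 were lower, 1 and 3 of 7 against 18.3% and 17.3% of all tested genes.

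Tox (ENSMUSG00000041272), at chr4:6686353-6991557, had the widest change with IL12 of the 9 tested genes in each genotype. Without cytokine it stood at 42.5, 40.6, 27.8, 36.6 and 42 in the WT libraries and 47.8, 53.4, 50.3, 40.5 and 52 in the KO libraries. With IL12 it stood at 29.6, 32.6, 9.92, 12 and 9.94 in the WT libraries and 32.3, 33.4, 31.7, 20.1 and 21.1 in the KO libraries. Libraries numbered above 70 lay far below the others within each genotype. The same WT libraries held the most Furin, Ifng and Havcr2, so the WT mean with IL12 averages separate clusters; what the numbers stand for is not given in the sources used here. The changes with IL12 were -1.02 (95% interval -1.51 to -0.53, adjusted p = 0.00355) in WT and -0.82 (95% interval -1.29 to -0.34, adjusted p = 0.0157) in KO. Every library was lower with IL12 than the library of the same number without cytokine, in 5 of 5 numbers of each genotype. Without WT libraries 72 and 75 the WT change was -0.67 (adjusted p = 0.0904), and without KO 73 or KO 74 with IL12 the KO change was -0.72 (adjusted p = 0.0506) or -0.73 (adjusted p = 0.0562). With a term for numbers above 70 the changes were -1.08 (adjusted p = 0.000522) and -0.84 (adjusted p = 0.004). TGFB1 left Tox at 37.1 to 51.3 CPM in WT and 35.5 to 50.6 CPM in KO, with changes of 0.25 (SE 0.23, adjusted p = 0.4) and -0.13 (SE 0.23, adjusted p = 0.729). The genotypes were not called apart in any medium, and the widest difference was 0.57 (SE 0.24, adjusted p = 0.14) with IL12. That difference was called in 4 of 21 alternatives (adjusted p from 0.016 to 0.729), and the one without cytokine, 0.36, in 1 of 21 (adjusted p = 0.0488 with the compared groups fitted alone). Tox shares 260 exon bases with the antisense gene Gm11802, which did not exceed 0.132 CPM.

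The response to TGFB1 was then compared between genotypes. The TGFB1 response of 2 of the 9 genes was smaller or opposite in KO: Pdcd1 by -1.13 (95% interval -1.68 to -0.57, adjusted p = 0.0262) and Cd5 by -0.88 (95% interval -1.36 to -0.40, adjusted p = 0.0369). Over all tested genes 1.69% were called with a KO minus WT difference below 0, whichever way TGFB1 moved them in each genotype. Between libraries of the same number, Pdcd1 was higher with TGFB1 in 5 of 5 WT numbers and 3 of 5 KO numbers, and Cd5 in 4 of 5 WT numbers and 1 of 5 KO numbers. Cd160 showed the widest difference, -1.73 (95% interval -2.76 to -0.70, adjusted p = 0.0516), just outside the threshold and inside it in 13 of 32 alternatives. Rgs16 differed by -0.98 (SE 0.37, adjusted p = 0.116). The responses of Ctla4, Lag3 and Tigit differed between genotypes by 0.10, 0.08 and -0.02, with 95% intervals of -0.35 to 0.55, -0.15 to 0.30 and -0.42 to 0.38. Without WT library 62 with TGFB1, which stood apart, 4 of 9 were called and calls over all genes rose from 387 to 2155. Among the 4, Btla differed in the other direction, by 0.45 (adjusted p = 0.0456). The count fell to 0 without KO 68 or KO 74 of either medium, KO 70 without cytokine, or WT 67 or WT 75 with TGFB1, and to 1 without WT 71 with TGFB1 or WT 72 without cytokine. Since these differences and the genotype difference without cytokine share libraries, a gene high in KO without cytokine enters both. For IL12 the same test called 0 of the 9 genes in edgeR (0 also at an unadjusted p under 0.05, and 0 with DESeq2), and 0.0% of all tested genes.

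**Figure D5:**
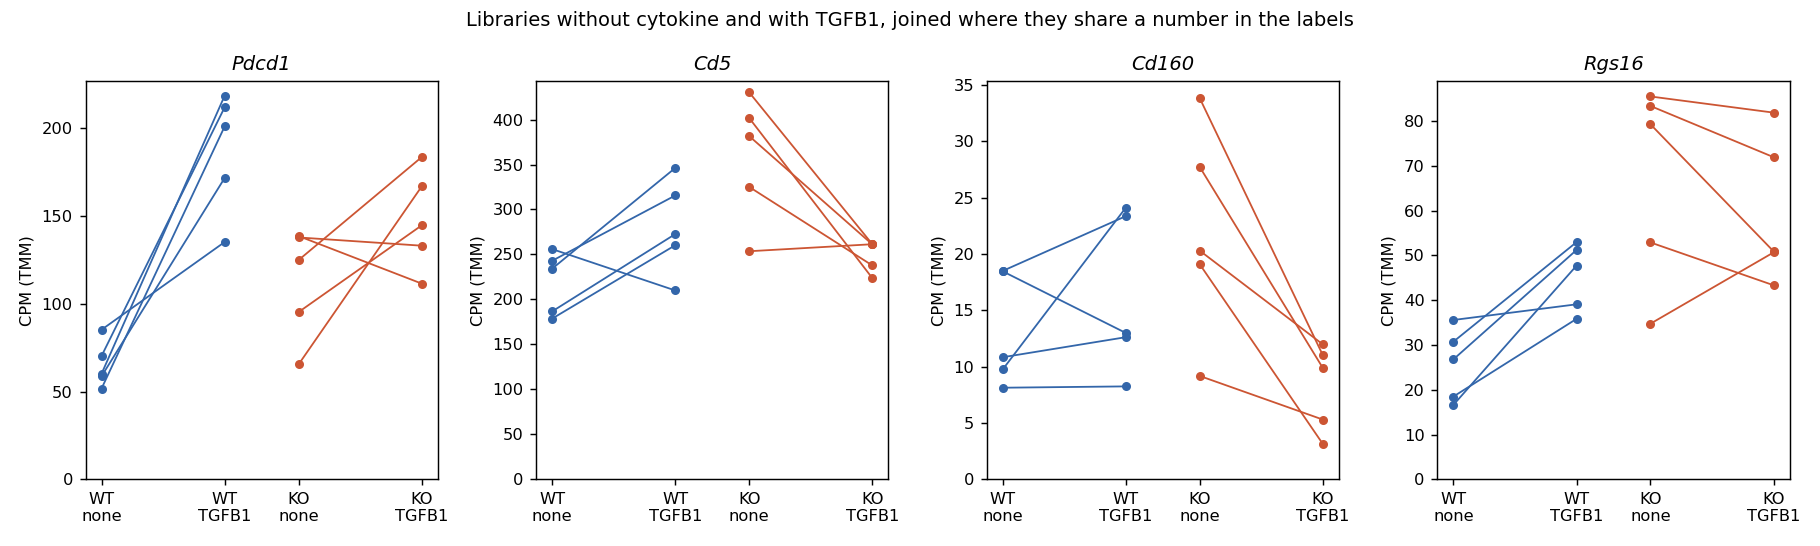
CPM of Pdcd1, Cd5, Cd160 and Rgs16 in libraries without cytokine and with TGFB1, joined where they carry the same number, for WT (blue) and KO (red), on axes that start at 0. All 5 WT lines of Pdcd1 rise, 4 of 5 KO lines of Cd5 fall, and all 5 KO lines of Cd160 fall.

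Markers of other states moved in the same groups. Both markers of regulatory T cells, Foxp3 and Ikzf2, rose with TGFB1. Their sum was 7.34 to 13.9 CPM in WT and 5.69 to 10.4 CPM in KO without cytokine, 22.7 to 86.2 CPM and 30.2 to 49.5 CPM with TGFB1, and 8.74 to 19.6 CPM and 8.56 to 14.8 CPM with IL12. The sum hides a difference between the 2 genes with TGFB1. Foxp3 was called higher in KO, at 5.31 to 16.2 CPM against 1.73 to 5.03 CPM in WT, and Ikzf2 was called lower in KO. Cd4 did not exceed 2.37 CPM in any library, while Zbtb7b, the other CD4 marker, was called higher with TGFB1 in both genotypes. Of the 7 CD8 markers 6 were lower in KO with TGFB1 (17.3% of all tested genes), where their sum had a median of 5300 CPM in WT and 3640 CPM in KO. Of the 4 markers of NK cells, whose sum did not exceed 4.11 CPM, Klre1 was called higher with IL12 in both genotypes. In these bulk libraries a change in the share of cells that express a gene and a change in RNA per cell cannot be told apart, and the part of these markers in the results above was not tested.

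Other genes of the same pathways were compared as lists chosen by function. The lists were chosen with earlier results of these data known, so their counts are no independent support. Their calls are given without values for left-out libraries. Genotype calls over all genes fell from 246 to 7 without KO 74 (no cytokine), and from 794 to 8 without WT libraries 72 and 75 (IL12). Of 10 other inhibitory receptors tested, TGFB1 raised 6 in WT (19.2% of all tested genes rose), including Cd72 by 2.87 (SE 0.27, adjusted p = 9.83e-09) and Cd96, which shares ligands with TIGIT, by 1.79 (SE 0.18, adjusted p = 4.78e-08), and lowered none. In KO it raised 4 and lowered 2, against 13.5% and 11% of all tested genes. The medians were 0.98 in WT and 0.46 in KO, against 0.02 and 0.01 over all tested genes. Between genotypes 0 of 10 were called without cytokine, where 1.08% of all tested genes were higher and 1.02% lower. With IL12 0 of 10 were called as well, against 2.76% and 4.01%. In KO with TGFB1 5 of 10 were lower (17.3% of all tested genes). Among them were Klrd1 at -1.42 (SE 0.26, adjusted p = 0.000364) and Vsir, which encodes VISTA, at -0.99 (SE 0.24, adjusted p = 0.0028). Pecam1 was lower too, -1.64 (SE 0.36, adjusted p = 0.00133). The list's median difference with TGFB1 was -0.66, against -0.01 over all tested genes. Of 24 genes of inhibitory signalling, 1 was higher and 8 lower in KO with TGFB1, against 18.3% and 17.3% of all tested genes, including Sla, an adaptor that limits antigen receptor levels, at -0.98 (SE 0.23, adjusted p = 0.00225) and Cblb, a ubiquitin ligase that restrains activation, at -0.57 (SE 0.14, adjusted p = 0.00238). The median of these 24 was -0.26 with TGFB1 and 0.00 without cytokine. Without cytokine, where 1.08% of all tested genes were higher and 1.02% lower, 1 was higher, Spry1 at 0.66 (SE 0.16, adjusted p = 0.0263), and 1 lower, Sla2 at -0.81 (SE 0.20, adjusted p = 0.0322).

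Of 23 factors of the exhaustion and activation programme, IL12 raised 10 and lowered 2 in WT (10.5% and 8.3% of all tested genes) and raised 8 and lowered none in KO (8.49% and 5.74%), with list medians of 0.17 and 0.31. These included Tbx21, which encodes the effector factor T-bet, at 1.83 (SE 0.19, adjusted p = 1.74e-07) in WT and 1.62 (SE 0.19, adjusted p = 9.81e-07) in KO, and Prdm1 (BLIMP1) at 3.33 (SE 0.35, adjusted p = 1.94e-07) and 3.44 (SE 0.37, adjusted p = 4.45e-07). TGFB1 raised Maf by 7.72 (SE 0.73, adjusted p = 1.06e-08) in WT and 7.59 (SE 0.71, adjusted p = 4.63e-09) in KO. Between genotypes without cytokine 1 of 23 was called higher (1.08% of all tested genes) and none lower (1.02%). It was Egr2, an early target of antigen receptor signals that restrains activation, at 0.87 (SE 0.24, adjusted p = 0.0469). The same gene was the 1 called with IL12, 0.76 (SE 0.23, adjusted p = 0.0451), against 2.76% higher and 4.01% lower. With TGFB1 1 was higher and 6 lower in KO, against 18.3% and 17.3% of all tested genes. The lower ones included Id3 at -1.66 (SE 0.26, adjusted p = 0.000119), Bcl6 at -2.42 (SE 0.39, adjusted p = 0.000154) and Eomes at -1.72 (SE 0.43, adjusted p = 0.00336), and Irf4 was the higher one. Of 13 costimulatory receptors, 2 were higher in KO without cytokine (1.08% of all tested genes). They were Icos at 0.52 (SE 0.11, adjusted p = 0.0198) and Tnfrsf4 (OX40) at 0.68 (SE 0.17, adjusted p = 0.0308). Cd2 was lower at -0.79 (SE 0.17, adjusted p = 0.0161), against 1.02% of all tested genes. With IL12 3 were higher and 3 lower, against 2.76% and 4.01% of all tested genes, and with TGFB1 1 was higher and 2 lower, against 18.3% and 17.3%. The list's median was 0.18 without cytokine, -0.10 with IL12 and -0.01 with TGFB1.

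For each tested gene the genes with the most similar profile were ranked by Pearson's r of log2 CPM over the 30 libraries, which share their 6 groups and so the group differences. Btla was closest to Cd200 (r = 0.956), which encodes a ligand of an inhibitory receptor, followed by Pde12 (r = 0.909) and Exo1 (r = 0.901). Tox was closest to Synpo (r = 0.946), Usp6nl (r = 0.927) and Litaf (r = 0.923), and Cd5 to Cd6 (r = 0.931), Jade2 (r = 0.898) and Stx6 (r = 0.89). Ctla4 lay nearest to B2m (r = 0.904), Zfp775 (r = 0.892) and Mgst3 (r = 0.889). Genes near Lag3 included Ankrd12 (r = 0.9) and H2-K1 (r = 0.897). Genes near Pdcd1 included Elk3 (r = 0.894) and Tgif1 (r = 0.877). Rgs16 lay nearest to Slc16a10 (r = 0.868), Ryk (r = 0.867) and Mboat7 (r = 0.866). Tigit and Cd160 had the loosest neighbours, Wrnip1 (r = 0.836) and Lsm6 (r = 0.807). These values are descriptions. The 10 genes were left out of the ranking, so it does not show how closely they follow one another.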

How the data were processed

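The deposited file holds read counts per Ensembl gene for 30 libraries, which the authors made from directional polyA libraries, per the labels' protocols, with Trim Galore, STAR and GRCm38, per the submitters' processing notes; neither the counter, its strand setting nor the annotation version is stated in those sources. Symbols and exon lengths came from GENCODE vM21 (55480 of 55573 identifiers matched). Genes were kept by filterByExpr (minimum count 10), which left 11718 genes and 99.88% of counts, scaled by TMM and tested with edgeR 4.0.16 (R 4.3.3; quasi-likelihood F test, 1 mean for each of 6 groups, two-sided, Benjamini-Hochberg over all tested genes, called at an adjusted p under 0.05). CPM uses the same factors. Alternatives were RLE factors, no filter, a stricter filter (4 CPM in 5 libraries), DESeq2 1.42.0, limma-voom (limma 3.58.1), the compared groups alone, terms for sex or number, females alone, replicate blocks and leaving out libraries. The test was also run on simulated counts. These were drawn independently, with no effect of library number and no library that stood apart, so that run does not cover these features. No pair of libraries of the same group agreed within sampling noise (smallest chi-square per degree of freedom 2.35), and pairs across groups were not compared.

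The 10 genes and the lists were chosen with earlier results of these data known. All 10 are described; list genes are named where called, at most 4 per list and comparison by smallest p, and ligands freely; the 3 nearest genes by Pearson's r are named, apart from a few genes that are not reported here.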

Additional observations from a re-analysis of the deposited data

Results flagged for a closer look

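In 4 of 60 sets of 5 libraries (10 genes in 6 groups), 1 library lay far from the others; chance gives about 1 in 20. These were Ctla4 in KO library 73 with TGFB1 (285.9 CPM, the others 181 to 211 CPM), Btla in WT library 62 with TGFB1 (102.9 CPM, the others 61.0 to 69.0 CPM), Havcr2 in WT library 71 without cytokine (0.1178 CPM, the others at 0) and Havcr2 in KO library 63 with IL12 (0.8097 CPM, the others 0.494 to 0.573 CPM). WT library 62 with TGFB1 also had the lowest Itgae and the highest Gzmb of its group, 28.9 and 167 CPM against 152 to 268 and 13.9 to 41.5 CPM. Without it the fall of Btla with TGFB1 in WT was -0.89 on the log2 scale, against -0.73 with it. The Havcr2 values rest on 1 count in WT library 71 without cytokine.

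For 2 genes the TGFB1 response differed between genotypes by a test of the difference itself: Pdcd1 by -1.127 and Cd5 by -0.879 on the log2 scale, KO minus WT (edgeR, adjusted p = 0.0262 and 0.0369). Over the alternatives the Pdcd1 difference ran from -1.41 to -1.04 (adjusted p 0.00277 to 0.0633) and the Cd5 difference from -1.06 to -0.80 (adjusted p 0.00464 to 0.0907).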

How the results depend on the processing

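Among the 10 genes, the count called changed by more than 1.5 times in these cases. With the compared groups fitted alone it was 1 for KO against WT with TGFB1 (2 in the report), 1 with IL12 (3) and 4 for IL12 in KO (2). Without WT libraries 72 and 75 with IL12 it was 0 for KO against WT with IL12 and 0 for IL12 in WT (2). For IL12 in WT it was 4 with DESeq2 and 4 with no filter, which added Pdcd1 and Havcr2, the gene outside the 9 tested. Leaving out 1 library gave 0 to 4 for KO against WT without cytokine (4), 1 to 2 with TGFB1, 2 to 5 with IL12, 1 to 2 for IL12 in KO and 0 to 4 for the difference in TGFB1 response (2); the cause of these changes was not tested. Blocking on the library number gave 5 for KO against WT with IL12 (limma-voom with the number as a block), and 4 for IL12 in WT (adding Rgs16 and Pdcd1, both higher), 5 for IL12 in KO (adding Ctla4 and Tigit, lower, and Rgs16, higher) and 4 for the difference in TGFB1 response (edgeR with the number as a term); the block moved no other count by over 1.5 times. The main tests did not treat the numbers as pairs, because the sources used here do not say what a number marks. Same-numbered libraries nevertheless correlated at -0.034 to 0.43 (median 0.222) in their deviations from group means, with 25 of 30 pairs above 0.1. Of the 30 libraries, 13 correlated best with their own number. The cytokine results that the block changed depend on this choice.

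Values that changed sign were uncalled and small. Without WT libraries 72 and 75, Tigit was -0.054 for KO against WT with IL12 and 0.053 for IL12 in WT, Cd160 was 0.191 for IL12 against TGFB1 in WT, and the differences in IL12 response were -0.113 for Cd5 and -0.145 for Tox. Cd160 for KO against WT with IL12 was 0.086 in females alone, 0.010 with no filter and 0.002 with a term for sex. Cd160 for IL12 against TGFB1 in WT was 0.000 with the edgeR block, 0.052 with limma-voom and 0.049 with its block. The difference in IL12 response was 0.009 for Btla with no filter, and for Cd5 -0.002 with DESeq2, -0.002 with RLE factors, -0.005 with the edgeR block and -0.001 with the stricter filter. Leaving out 1 library gave -0.095 to 0.040 for Lag3 and -0.078 to 0.047 for Tox (KO against WT with TGFB1), -0.162 to 0.161 for Cd160 (KO against WT with IL12), -0.197 to 0.164 for Cd160 (IL12 against TGFB1 in WT) and -0.127 to 0.046 for Btla (the same in KO). For the differences in response it gave -0.032 to 0.199 for Ctla4 and -0.122 to 0.054 for Tigit (TGFB1), and -0.080 to 0.046 for Btla, -0.103 to 0.129 for Cd5 and -0.279 to 0.044 for Rgs16 (IL12). Depth limits Havcr2, whose groups held 1 to 43 counts.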
